A study of Mus musculus with 6 samples.

Results

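The Asb genes encode proteins with ankyrin repeats and a SOCS box, and 10 of them with a known or proposed place in striated muscle were followed here: Asb2, Asb4, Asb5, Asb10, Asb11, Asb12, Asb14, Asb15, Asb16 and Asb18. They were taken by name from a list of Asb genes. RNA came from tibialis anterior (TA) muscles of 3 N1ICD-mdx and 3 mdx mice, all given as 9 months old, on a 129 × C57BL/6 background and on regular chow. All 6 mice carried the mdx mutation and so lacked dystrophin. The N1ICD-mdx mice in addition expressed the intracellular domain of Notch1 (N1ICD) from the Rosa26 locus once MCK-Cre, which is active in post-fusion muscle fibers and in heart muscle, had removed a stop cassette. Each of 3 two-color arrays held 1 N1ICD-mdx muscle in Cy5 and 1 mdx muscle in Cy3 with no dye swap, so that dye and genotype cannot be told apart. There was no muscle without the mdx mutation on the arrays, so the values compare dystrophic muscles with each other.

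In the best described members, the SOCS box binds Elongin B and Elongin C and through them the scaffold Cullin 5 with the RING protein Rbx2, which builds a ubiquitin ligase of the cullin-RING type. The ankyrin repeats hold the protein to be marked with ubiquitin, so that each Asb protein acts as the adaptor that decides what the ligase destroys. Asb2 is the best known of them: its ligase degrades filamins, which link actin to the membrane, and Asb2 has been described as a gene that Notch can induce in blood cells. Several Asb genes are rich in skeletal muscle or heart, and for many the substrate is not known.

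On the arrays, 14 non-control probes carried a RefSeq transcript of these 10 genes, of 28026 probes with a gene name. Asb18 had 3 probes, Asb4 and Asb10 had 2 probes each and the other genes had 1 probe. A probe was kept when Feature Extraction, the scanner software, had called it well above background on each array in the same dye. This held for 13 of the 14 probes and for 9 of the 10 genes, of 13705 genes in all. Asb16 was the exception. Its probe A_55_P2164413 was not well above background in any of the 6 muscles. Its signal was 18, 20.5 and 20 in the N1ICD-mdx muscles of arrays 1, 2 and 3, beside local backgrounds of 17, 18 and 17, and 54, 41.5 and 49 in the mdx muscles, beside local backgrounds of 47, 54 and 48. Its log2 ratios of -0.14, 0.13 and -0.03 set signals at background against each other and are not read as a difference between genotypes, and the arrays say only that its RNA was not detectable at this signal. None of the 14 probes was saturated or marked as an outlier in any muscle.

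To describe the sequence before the start sites of the 10 genes, RefSeq windows (GRCm38.p6) were read. There were 14 for the 10 genes, since Asb2, Asb4 and Asb5 have more than 1 start, and the 250 bases before each start were searched on both strands. The letters searched were the E-box CANNTG, which myogenic factors bind, TGGGAA, the core of the RBPJ site through which Notch acts, and, by name, the MEF2 site and the CArG box of serum response factor. A MEF2 match stood in 5 of the 14 windows, at Asb5, Asb12, Asb14, Asb16 and Asb18, and in 2.92% of all 32851 windows of that length. A CArG match stood in 2 windows, at Asb2 and at another start of Asb5, against 1.47% of all windows. TGGGAA or its reverse complement TTCCCA stood in 2 windows, at Asb5 and Asb14, against 21.6% of all windows, and an E-box stood in 12 windows, against 66.2%. A match is a stretch of letters and not a measured binding site, and the arrays do not show which start is used. For each of the 5 measured genes with MEF2 or CArG letters, the window that holds those letters nearest to its start is printed, to show where those letters lie, from 5′ to 3′ on the strand of the gene, ending at the base before the start. Capitals mark every match to the 4 motifs.
Asb2, chr12:103356002-103356251, minus strand: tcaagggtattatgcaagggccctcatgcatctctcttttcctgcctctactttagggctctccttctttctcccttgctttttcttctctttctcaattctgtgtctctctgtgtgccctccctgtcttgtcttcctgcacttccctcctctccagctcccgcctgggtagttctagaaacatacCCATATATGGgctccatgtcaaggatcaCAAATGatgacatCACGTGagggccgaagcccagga
Asb5, chr8:54571189-54571438, plus strand: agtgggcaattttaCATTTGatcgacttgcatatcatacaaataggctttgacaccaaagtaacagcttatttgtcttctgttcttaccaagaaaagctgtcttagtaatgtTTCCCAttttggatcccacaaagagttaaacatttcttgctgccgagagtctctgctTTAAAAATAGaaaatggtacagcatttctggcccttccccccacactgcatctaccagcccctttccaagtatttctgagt
Asb12, chrX:95478130-95478379, minus strand: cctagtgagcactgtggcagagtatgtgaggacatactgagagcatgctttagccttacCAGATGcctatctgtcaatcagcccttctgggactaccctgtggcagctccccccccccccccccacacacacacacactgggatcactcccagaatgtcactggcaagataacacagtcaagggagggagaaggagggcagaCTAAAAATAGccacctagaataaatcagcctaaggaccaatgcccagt
Asb14, chr14:26894364-26894613, plus strand: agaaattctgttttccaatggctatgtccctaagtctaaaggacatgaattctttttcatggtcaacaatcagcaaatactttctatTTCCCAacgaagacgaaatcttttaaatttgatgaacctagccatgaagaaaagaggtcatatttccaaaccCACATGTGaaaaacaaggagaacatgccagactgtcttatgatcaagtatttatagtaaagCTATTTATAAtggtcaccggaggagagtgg
Asb18, chr1:90014667-90014916, minus strand: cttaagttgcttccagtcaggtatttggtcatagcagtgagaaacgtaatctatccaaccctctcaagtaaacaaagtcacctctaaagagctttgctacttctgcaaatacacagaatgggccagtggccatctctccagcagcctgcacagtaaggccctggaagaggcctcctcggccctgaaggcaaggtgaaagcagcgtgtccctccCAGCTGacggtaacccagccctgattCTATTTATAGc
In Asb2 the CArG letters began 64 bases before the start, and E-boxes began at 36 and 23 bases. In Asb14 the MEF2 letters began 30 bases before the start, a pair of E-boxes overlapped at 91 and 89 bases, and TTCCCA began at 163 bases. In Asb12 and Asb18 the MEF2 letters began 48 and 11 bases before the start. In Asb5 they began at 81 bases, with TTCCCA at 138 bases.

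Before the Asb values, the arrays themselves need a short account. Of 13705 genes, 65 were higher and 66 lower in N1ICD-mdx muscles under a rule of 1.5-fold and an unadjusted limma p under 0.05, which is 0.956% of the genes tested. No gene reached an adjusted p under 0.05 in limma (0% of the genes tested), while 890 genes had an unadjusted p under 0.05. With the 6 muscles taken as separate samples 1 gene reached it, and in the methods' t-test 0 did. The split of 65 higher and 66 lower became 30 and 391 when arrays were centered on their median in place of loess, and 271 and 173 with the processed signals of the scanner software. Notch1 itself had levels of 6.59, 6.47 and 6.43 in the N1ICD-mdx muscles, against 6.71, 6.57 and 6.58 in the mdx muscles, on the log2 scale of normalized intensity. Whether its probe lies in the part of Notch1 that the transgene carries is not given in the sources used here, so it does not check the transgene. Of 8 listed Notch genes 6 were measured, without Hes5 and Hey2, and 0 were called. Their median log2 ratio was 0.16 (-0.0059 with 1 gene called lower under median centring, 0.31 with 2 genes called higher with the processed signals). The smallest p belonged to Rbpj, the DNA-binding partner of the Notch intracellular domain, with -0.29, -0.61 and -0.32 on arrays 1, 2 and 3. The Notch targets Heyl, Nrarp and Hey1 had 0.19, 0.54 and 0.60, then 0.40, 0.26 and 0.19, and then 0.27, 0.15 and 0.21 (limma adjusted p = 0.70 for all 4), and Hes1 had 0.01, 0.10 and 0.21.

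No Asb gene passed. Of the 9 measured genes, 0 were called at 1.5-fold and an unadjusted p under 0.05, where 0.956% of all genes were called, and the adjusted p lay between 0.70 and 0.96 (limma, 3 arrays). The mean log2 ratio of N1ICD-mdx over mdx ran from -0.13 for Asb15 to 0.28 for Asb12, with a median of 0.11 over the 9 genes and of -0.00 over all genes. It was above 0 in 6 genes and below 0 in 3, but in 3 and 6 when the arrays were centered on their median, a setting that moved the median of all genes to -0.18, and in 8 and 1 with the processed signals. N1ICD-mdx and mdx levels overlapped for each of the 9 genes, while 13.8% of all genes had levels that did not overlap. A p above the threshold does not show that the genotypes are alike. The 95% intervals of limma left out a 1.5-fold difference in both directions (0.58 on the log2 scale) for 3 genes, Asb10, Asb15 and Asb18, and for none of the other 6, while they did so for 72.5% of all genes. Asb15 and Asb18 were dim, and the probe that stood for each was kept through 1 channel alone. With the processed signals Asb15 had a mean of -0.86.

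**Figure D1:**
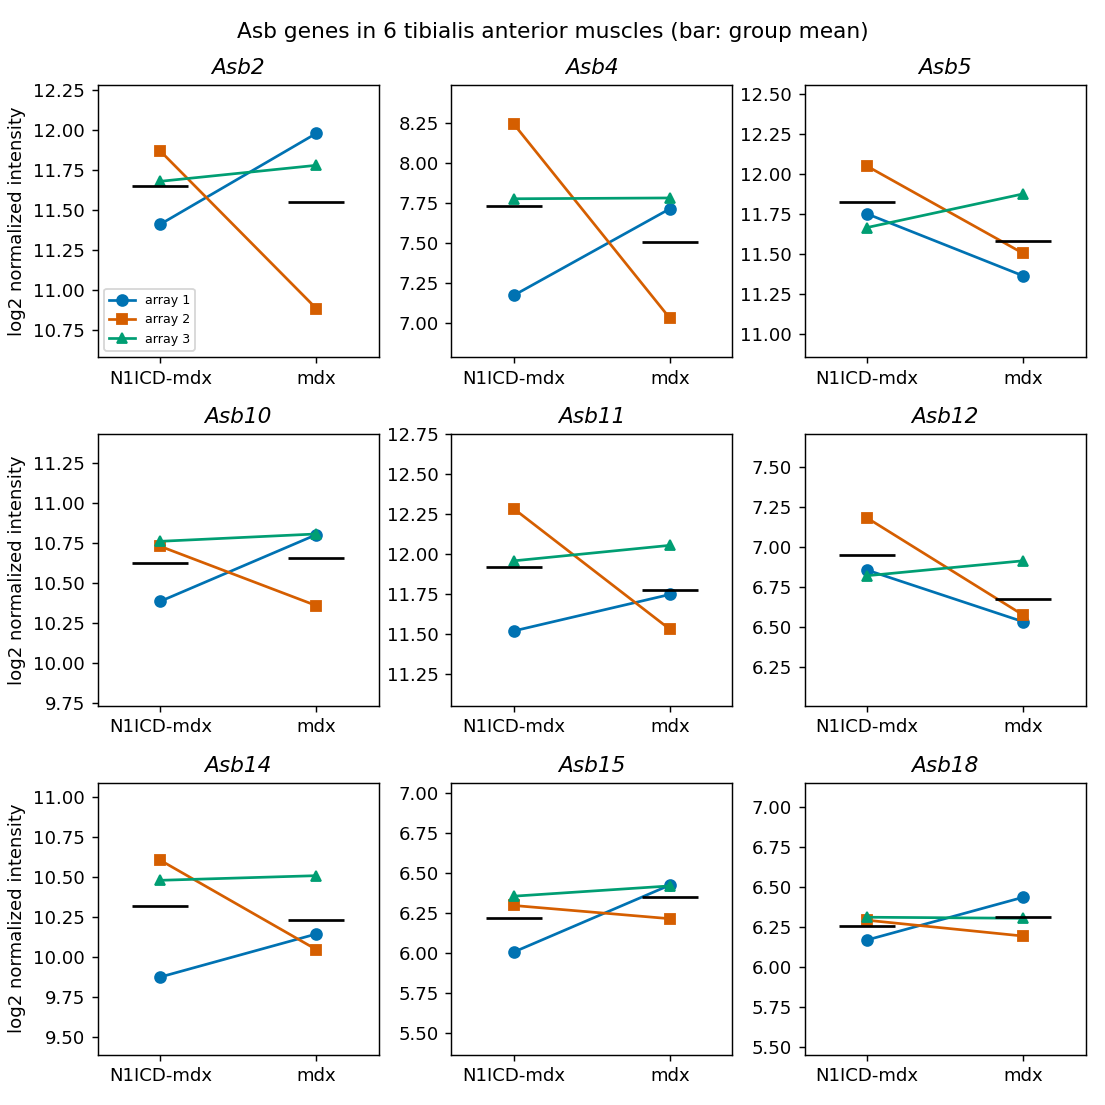
Log2 normalized intensity (vertical axes, each spanning the same number of log2 units) of the 9 measured Asb genes in N1ICD-mdx and mdx TA muscles; lines join the muscles hybridized to the same array and black bars are group means of 3 muscles. The levels of the genotypes overlap in every panel, and on array 2 every line runs down toward mdx.

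Asb2, the filamin adaptor, had the widest range among mdx muscles. Its level was 11.41, 11.87 and 11.68 in N1ICD-mdx muscles 1, 2 and 3, against 11.98, 10.89 and 11.78 in mdx muscles 1, 2 and 3. The mdx muscle of array 2 was the lowest of all 6 and the mdx muscle of array 1 the highest, so the N1ICD-mdx values lay inside the mdx range. Its log2 ratios on arrays 1, 2 and 3 were -0.57, 0.98 and -0.10, with a mean of 0.11 (SE 0.32, 95% interval -0.77 to 0.98, limma adjusted p = 0.92). Median centring gave -0.10, and leaving out array 2 gave -0.33, so the direction of Asb2 was not settled. Without array 2 the unadjusted limma p was 0.046, but the ratio was below 1.5-fold, so Asb2 was not called. In raw terms the median signal was 2412, 2634 and 3108.5 in the N1ICD-mdx muscles, against 5374, 1712 and 4565.5 in the mdx muscles, before any correction for the brighter Cy3 dye.

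Asb4, known from blood vessels and as a target of the oxygen-sensing hydroxylase FIH, had the largest difference between arrays. At its brighter probe A_52_P594756 the level was 7.17, 8.25 and 7.78 in N1ICD-mdx muscles, against 7.71, 7.03 and 7.78 in mdx muscles. The N1ICD-mdx muscles held the highest value and the mdx muscles the lowest, both on array 2. On the arrays the log2 ratios were -0.54, 1.21 and -0.01, with a mean of 0.22 (SE 0.36, 95% interval -0.76 to 1.21, limma adjusted p = 0.86). Leaving out array 2 gave -0.27. The signal at this probe was 96, 186 and 162 in N1ICD-mdx muscles, beside backgrounds of 17. In mdx muscles it was 240.5, 115 and 251.5, beside backgrounds of 37, 50 and 47. The mean was 0.31 with an offset of 10, 0.45 with the processed signals, 0.01 under median centring and 0.11 over the kept probes. The other probe, A_55_P2117380, was well above background in 3 N1ICD-mdx and 2 mdx muscles, and its log2 ratios were only -0.04, 0.17 and -0.12. At that probe the signal was 26, 29 and 34 in N1ICD-mdx muscles, beside backgrounds of 16, 17 and 17, and 56, 49 and 75 in mdx muscles, beside backgrounds of 41, 46.5 and 47. With signals that close to background the offset of the correction draws ratios toward 0. The 2 probes had the same sign on each array and the highest ratio on array 2, and they differed in the order of arrays 1 and 3.

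Asb5, first described in growing arteries of the rabbit and present in muscle, was 1 of 2 genes that were above 0 on array 1. Its level was 11.75, 12.05 and 11.66 in N1ICD-mdx muscles, against 11.36, 11.502 and 11.87 in mdx muscles. Array 3 ran the other way, with mdx above N1ICD-mdx. Asb5 ratios on the log2 scale were 0.39, 0.54 and -0.21, with a mean of 0.24 (SE 0.18, 95% interval -0.24 to 0.72, limma adjusted p = 0.72). The mean of Asb5 was 0.17 without array 1, 0.089 without array 2 and 0.47 without array 3, and it was 0.047 under median centring. Without array 3 the unadjusted limma p was 0.049, but the ratio was below 1.5-fold, so Asb5 was called in none of these.

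Asb12 had the smallest p of the 9 genes and the same shape as Asb5. Its level was 6.86, 7.18 and 6.82 in N1ICD-mdx muscles, against 6.53, 6.58 and 6.91 in mdx muscles. The muscles of arrays 1 and 2 were apart in the direction of N1ICD-mdx, and the mdx muscle of array 3 closed the gap. Asb12 ratios on the log2 scale were 0.32, 0.61 and -0.09, with a mean of 0.28 (SE 0.16, 95% interval -0.16 to 0.71, unadjusted p = 0.15, limma adjusted p = 0.70). It was dim as well. Its signal was 68, 80 and 65.5 in N1ICD-mdx muscles, beside backgrounds of 16, 20 and 17. In mdx muscles the signal was 92, 80 and 118.5, beside backgrounds of 46, 50 and 44. The mean ratio was 0.46 with a normexp offset of 10, 0.37 with no background correction and 0.60 with the processed signals, which differ in dye normalization as well. The mean ratio was 0.14 under median centring, 0.26 without array 1, 0.11 without array 2 and 0.46 without array 3. Asb12 was called in none of these.

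The zebrafish counterpart of Asb11 acts on the Notch ligand Delta, and in mammals Asb11 sits at the endoplasmic reticulum. Asb11 had its ratios in the same array order as Asb2. Its level was 11.52, 12.29 and 11.96 in N1ICD-mdx muscles, against 11.75, 11.53 and 12.06 in mdx muscles. N1ICD-mdx muscle 1 was the lowest of the 6 and N1ICD-mdx muscle 2 the highest, so that the mdx values lay inside the N1ICD-mdx range. Asb11 ratios on the log2 scale were -0.23, 0.75 and -0.10, with a mean of 0.14 (SE 0.23, 95% interval -0.47 to 0.75, limma adjusted p = 0.85), and the mean was -0.04 under median centring and -0.16 without array 2.

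Asb14, whose substrates are not well described, ran between 9.88 and 10.61 in N1ICD-mdx muscles, against 10.05 and 10.51 in mdx muscles. The single values were 9.88, 10.61 and 10.48 in N1ICD-mdx muscles, against 10.14, 10.05 and 10.51 in mdx muscles. As in Asb11, the mdx values lay inside the N1ICD-mdx range. The log2 ratios were -0.27, 0.56 and -0.03, with a mean of 0.09 (SE 0.19, 95% interval -0.42 to 0.59, limma adjusted p = 0.89). The mean was -0.15 under median centring and -0.15 without array 2.

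Asb10 was the gene that 2 bright probes measured alike. At A_51_P406188 the level was 10.38, 10.73 and 10.76 in N1ICD-mdx muscles, against 10.80, 10.36 and 10.81 in mdx muscles. The log2 ratios there were -0.42, 0.37 and -0.05, and those at A_55_P2044710 were -0.51, 0.39 and -0.05. The probes differed by at most 0.10 on an array, less than the arrays differed from each other. The mean of the brighter probe was -0.03 (SE 0.18, 95% interval -0.51 to 0.44, limma adjusted p = 0.96), and it was 0.16 without array 1. Both probes were well above background in all 6 muscles.

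Asb15, which in cultured myoblasts slows differentiation when it is overexpressed, was dim. It was well above background in 2 of 3 N1ICD-mdx muscles and in all 3 mdx muscles. Its probe was thus kept through the mdx channel alone, so its ratios are not read as a difference between genotypes. Its signal was 21, 31 and 39 in N1ICD-mdx muscles, beside backgrounds of 16, 18 and 18, and 73, 56 and 75 in mdx muscles, beside backgrounds of 41, 47 and 45. The level was 6.00, 6.30 and 6.35 in N1ICD-mdx muscles, against 6.42, 6.21 and 6.42 in mdx muscles. The log2 ratios were -0.42, 0.08 and -0.06, with a mean of -0.13 (SE 0.13, 95% interval -0.48 to 0.22, limma adjusted p = 0.77). The narrow interval comes with a ratio drawn toward 0 by the offset, and the processed signals gave -0.86, also without passing the test.

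Asb18, an adaptor of striated muscle with no well-described substrate, had 3 dim probes. At A_55_P1969007 the level was 6.17, 6.29 and 6.31 in N1ICD-mdx muscles, against 6.44, 6.19 and 6.30 in mdx muscles. There mdx muscle 2 was not well above background, so the probe was kept through the N1ICD-mdx channel alone. Its ratios are not read as a difference between genotypes. The log2 ratios were -0.27, 0.10 and 0.01, with a mean of -0.05 (SE 0.11, 95% interval -0.35 to 0.24, limma adjusted p = 0.88). At A_55_P1969015 they were -0.17, 0.00 and -0.06, with all 6 muscles well above background. At A_55_P2164433 they were 0.05, 0.15 and 0.22, and there all 3 N1ICD-mdx muscles but none of the mdx muscles were well above background. That probe was thus kept through the N1ICD-mdx channel alone, the channel that had more spots well above background on each array (54.3%, 51.6% and 57.3% in N1ICD-mdx, against 48.2%, 45.9% and 51.1% in mdx), so its ratios are not read as a difference between genotypes. Its signal was 23, 22 and 24 in N1ICD-mdx muscles, beside backgrounds of 17, 18 and 18. The first 2 probes had the same sign on arrays 1 and 2 and opposite signs on array 3.

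**Figure D2:**
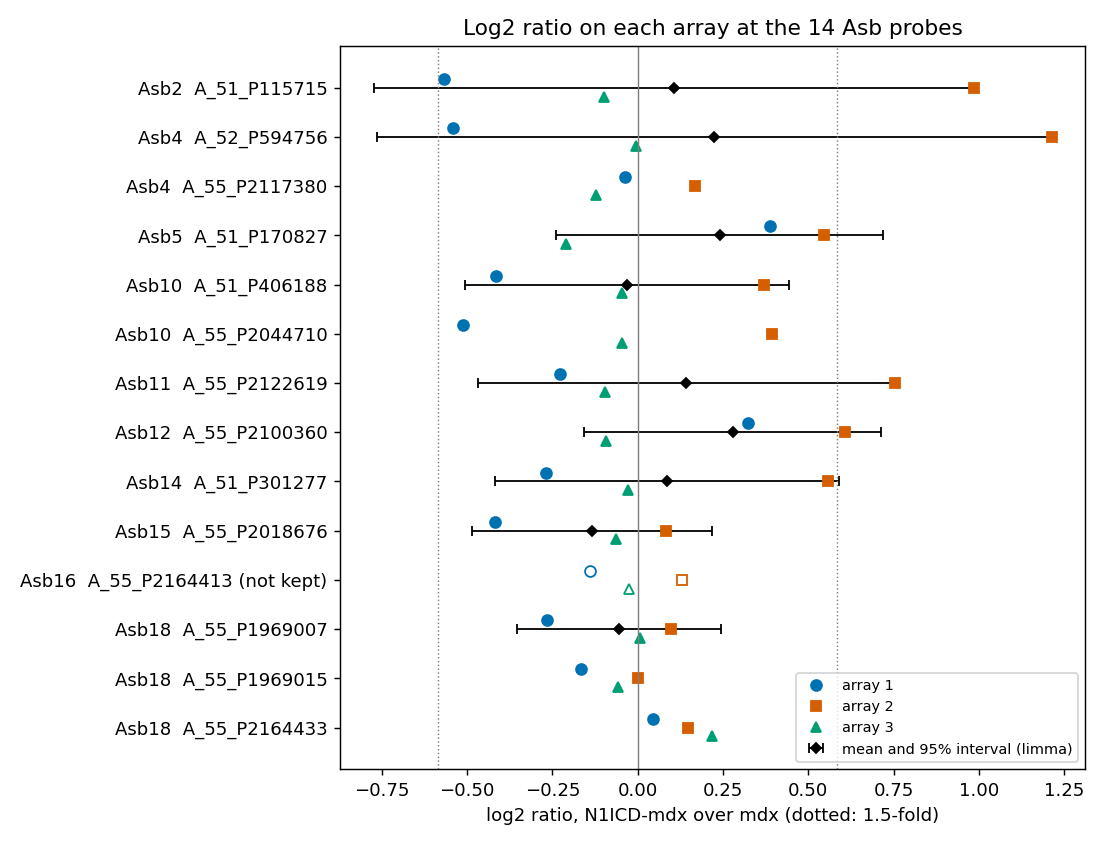
Log2 ratio of N1ICD-mdx over mdx (horizontal axis) on arrays 1, 2 and 3 at each of the 14 Asb probes (rows), with the mean and 95% interval of limma for the probe that stood for each gene; open symbols mark the Asb16 probe, which was not well above background, and dotted lines mark 1.5-fold. Of the 9 probes that stood for a gene, array 2 lies right of 0 at all 9 and array 1 left of 0 at 7, and every interval includes 0.

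Most of the genes had 1 thing in common: the order of the arrays. The genes were listed with earlier results of these data known. On array 2 all 9 genes were above 0, on array 1 only Asb5 and Asb12, and on array 3 only Asb18, at 0.01. The Asb18 probe that was well above background in all 6 muscles had -0.06 on array 3. Over all genes the shares above 0 were 50.4%, 50.9% and 50.2% on arrays 2, 1 and 3. The median ratio of the 9 genes was -0.27, 0.56 and -0.06 on arrays 1, 2 and 3. In 7 of the 9 genes (all but Asb5 and Asb12) array 2 lay above array 3 and array 3 above array 1, an order that 21.1% of all genes had. The 7 include the dim genes Asb15 and Asb18, each kept through 1 channel alone. No member had the same sign on all 3 arrays, while 34.0% of all genes did. This count rests on 3 arrays, the genes were measured in the same muscles, and it has no test. The same 7 genes had this order with the processed signals, with no background correction, with an offset of 10 and under median centring, and all 9 genes stayed above 0 on array 2 under each.

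The levels give the same signals muscle by muscle, so the counts here are not separate from the order above. The mdx muscle of array 2 was the lowest mdx muscle for 7 of the 9 genes, against 44.0% of all genes, and the N1ICD-mdx muscle of array 1 was the lowest N1ICD-mdx muscle for 7 genes, against 33.4%. The same 7 genes, Asb15 and Asb18 among them, made up both counts. The N1ICD-mdx muscle of array 2 was the highest N1ICD-mdx muscle for Asb2, Asb4, Asb5, Asb11, Asb12 and Asb14. It was not the highest for Asb10, Asb15 and Asb18, and the share over all genes was not counted. The SD of the 3 mdx muscles reached 0.58 for Asb2, and that of the 3 N1ICD-mdx muscles reached 0.54 for Asb4. The median SD of the 3 ratios was 0.40 over the 9 genes and 0.19 over all genes. Array 2 was also the array with the widest ratios over all genes, with an SD of 0.54 against 0.24 on array 1 and 0.24 on array 3.

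Markers of other cells moved on the same array. All 4 measured proliferation genes (of 6 listed, without Top2a and Cdk1) were lower in N1ICD-mdx on array 2, with a median log2 ratio of -3.04, against 0.30 and -0.16 on arrays 1 and 3. Their summed level was 10.83, 8.95 and 8.97 in N1ICD-mdx muscles, against 10.45, 12.32 and 9.18 in mdx muscles, on the log2 scale. A summed level adds intensities before the log, so the brightest genes of a list weigh most in it. The 12 macrophage genes had medians of -0.08, -1.73 and -0.08 on arrays 1, 2 and 3, with summed levels of 14.48, 13.79 and 13.95 in N1ICD-mdx muscles, against 14.55, 15.43 and 14.07 in mdx muscles. Thus the mdx muscle of array 2, low in 7 Asb genes, was the highest in macrophage and proliferation markers. The N1ICD-mdx muscle of array 1, also low in 7 Asb genes, was the highest N1ICD-mdx muscle in proliferation, macrophage and fibroblast markers (fibroblast summed level 16.99, 16.12 and 16.48 in N1ICD-mdx muscles, against 16.16, 16.43 and 16.35 in mdx muscles). It was also the highest N1ICD-mdx muscle in the slow fiber, regenerating fiber, satellite cell, smooth muscle and Schwann cell lists. It was the lowest N1ICD-mdx muscle in the erythroid list, as the mdx muscle of array 2 was among mdx muscles. Erythroid summed levels were 14.23, 14.57 and 15.30 in N1ICD-mdx muscles, against 15.30, 14.41 and 14.65 in mdx muscles. In the fast fiber list the N1ICD-mdx muscle of array 1 was the lowest by little. Summed levels there were 19.62, 19.79 and 19.63 in N1ICD-mdx muscles, against 19.25, 19.17 and 19.35 in mdx muscles. The mdx muscle of array 2 was the highest mdx muscle in the fibroblast, Schwann cell and adipocyte lists. It was the lowest mdx muscle in the fast fiber, slow fiber, regenerating fiber, smooth muscle and erythroid lists. Summed levels in mdx muscles were 12.91, 11.68 and 11.81 for slow fiber and 16.56, 15.86 and 16.59 for regenerating fiber genes. In both lists the 2 Asb-low muscles stood at opposite ends of their groups. Summed regenerating fiber levels in N1ICD-mdx muscles were 17.05, 17.04 and 16.76, above mdx on each array. The medians of that list were below 0 on each array, so sum and median differ in direction. The 2 measured erythroid genes had medians of -1.11, 0.08 and 0.61 on arrays 1, 2 and 3, and the 4 adipocyte genes had -0.31, 0.51 and 0.74. Both medians were below 0 on array 1, and on array 2 the erythroid median was at 0 under median centring. The summed adipocyte level on array 1 was 14.29 in N1ICD-mdx, against 13.51 in mdx. The part of these cells in the Asb values was not tested, and in a whole muscle fewer fibers and less Asb RNA per fiber cannot be told apart.

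Muscle fiber markers checked the tissue. All 13 fast fiber genes and all 8 slow fiber genes were measured. Fast fiber genes had medians of 0.29, 0.71 and 0.03 on the arrays, and 12 of 13 had a mean above 0 (7 with the processed signals), with 3 called higher (Myh1, Tnnc2 and Tnni2) and 0 lower. The calls numbered 1 with the processed signals, 2 with no background correction and 2 with an offset of 10. Myh1, the IIx myosin, had log2 ratios of 1.08, 1.02 and 1.59 (limma adjusted p = 0.70). On array 2 the Asb and fast fiber medians were both above 0, and on array 1 the Asb median was -0.27 beside 0.29 for the fast fiber genes, which became -0.42 and -0.14 with the processed signals. Slow fiber genes had medians of -0.18, 0.22 and 0.44 and 0 calls. Regenerating fiber genes had medians of -0.41, -0.28 and -0.06, with Myh8 called higher and Myh3 and Mymx called lower. With the processed signals 0 genes of that list were called higher and 2 lower, and under median centring 0 higher and 3 lower, so the Myh8 call was lost in both.

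**Figure D3:**
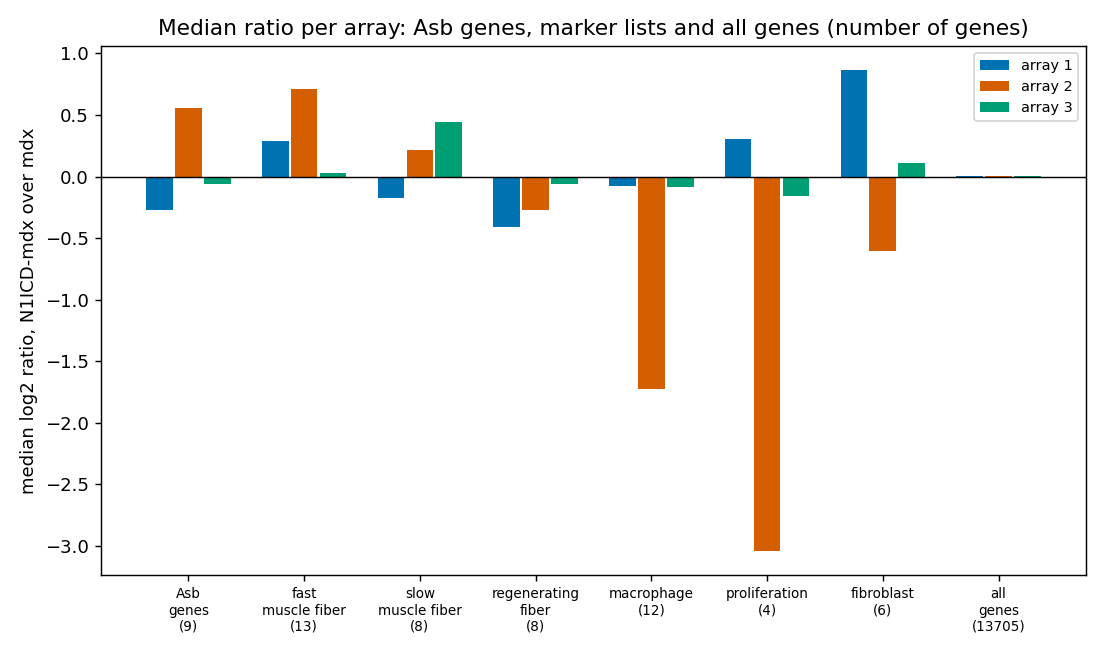
Median log2 ratio of N1ICD-mdx over mdx (vertical axis) on arrays 1, 2 and 3 for the 9 measured Asb genes, for marker lists and for all genes, with the number of measured genes in parentheses. The Asb genes reach 0.56 on array 2, where the macrophage list lies at -1.73 and the proliferation list at -3.04.

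No gene of the ligase core was called. All 14 genes of the Cullin 5 core and of the neddylation that switches it on were measured, and 0 were called in either direction, with a median log2 ratio of 0.02 (-0.16 under median centring). The genes of smallest p were Ube2f, the neddylation enzyme that serves Cullin 5, with 0.29, 0.24 and 0.15 on arrays 1, 2 and 3, and Rnf7, which encodes Rbx2, with -0.28, -0.06 and -0.19, beside Uba3 (0.20, 0.43 and 0.06) and Ube2r2 (-0.36, 0.01 and -0.14). Their limma adjusted p was between 0.70 and 0.71. Cul5 itself, named outside the rule because it is the scaffold, had 0.03, 0.07 and -0.02.

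Other Asb genes, which are not counted as muscle adaptors here, gave 5 measured genes of 8, since Asb3, Asb9 and Asb17 were not kept, and 0 were called. Their median was -0.08 (0.06 with the processed signals), with array medians of -0.09, 0.07 and -0.12. Asb6 was the only Asb gene of either list with the same sign on each array, at -0.27, -0.44 and -0.20 (mean -0.31, SE 0.09, unadjusted p = 0.029, limma adjusted p = 0.70). Asb13 had -0.09, 0.38 and 0.08, Asb1 had -0.00, 0.35 and -0.12, Asb7 had -0.29, 0.06 and 0.00, and Asb8 had 0.00, 0.07 and -0.35. Asb13 and Asb7 thus showed array 2 above array 3 above array 1.

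Reported substrates and partners of Asb proteins gave 14 measured genes of 15, without Smad9, and 0 were called, with a median of -0.00 (2 called lower and a median of -0.21 under median centring). The smallest p belonged to Jak2, a kinase that Asb2 has been described to mark, with 0.26, 0.67 and 0.19 (limma adjusted p = 0.70), and to Tnfrsf1b, the TNF receptor described as an Asb3 substrate, with -0.20, -0.81 and -0.27. Ckb, a creatine kinase bound by Asb9, had -0.63, -1.19 and 0.07, and Rpn1 had -0.09, -0.94 and -0.07. Flna, Flnc and desmin (Des), named outside the rule as substrates of Asb2, did not follow 1 pattern: Flna had 0.06, -1.52 and 0.01, Flnc, the filamin of muscle, had -0.07, -0.01 and 0.18, and Des had -0.15, 0.49 and -0.03 on arrays 1, 2 and 3. Transcript levels do not measure how much of these proteins was degraded.

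Muscle transcription factors gave 11 measured genes of 12, without Myf5, of which 10 had a mean above 0 (5 under median centring), 0 were called higher and 1, Myog, was called lower, with a median of 0.24. Myog, the factor of fusing myocytes, had -1.14, -1.41 and -0.27 (limma adjusted p = 0.70). Eya1 had 0.58, 0.26 and 0.40, and Six4 had 0.22, 0.53 and 0.46. Of the factors whose letters were searched, named here outside the rule, Srf had -0.02, 0.38 and 0.37, Mef2a had 0.67, -0.04 and 0.37, Mef2c had -0.07, 0.14 and 0.09 and Mef2d had -0.13, 0.57 and -0.17, while Rbpj, given above, was below 0 on each array. Of the myogenic factors that bind the E-box, Myod1 had -0.02, 0.99 and -0.07 and Myf6 had -0.01, 0.72 and -0.55, beside Myog given above.

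**Figure D4:**
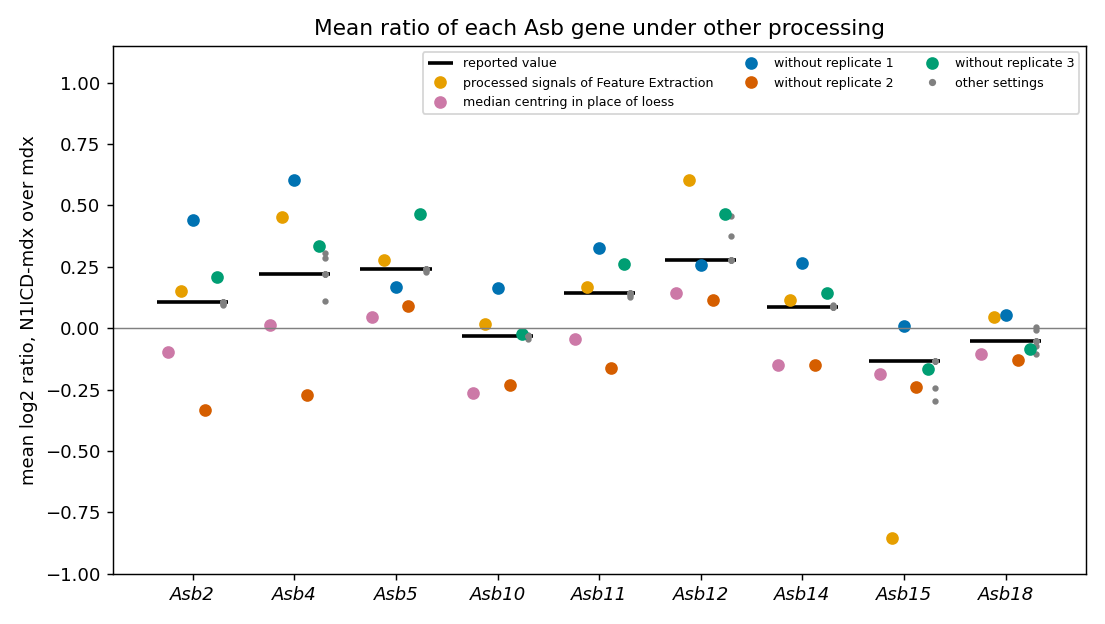
Mean log2 ratio of N1ICD-mdx over mdx (vertical axis) of each measured Asb gene as reported (black bars), with median centring, with processed signals, without each replicate and in the other settings (gray). Asb5 and Asb12 stay above 0 in every setting, and the other 7 genes lie on both sides of 0.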

How the data were processed

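RNA of 3 N1ICD-mdx and 3 mdx TA muscles was hybridized to 3 two-color arrays, and groups and dyes were taken from the labels. The deposited intensity values are median pixel signals and local backgrounds of each spot, per the file headers, which the authors obtained with Agilent Feature Extraction (11.5 per the labels, 11.5.1.1 in the headers). Well-above-background, saturation and outlier flags deposited beside them are other values of that software. Processed signals, already background-subtracted and dye-normalized, served as an alternative; those of replicate 1 hold few digits.

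Median signals, used because the files hold no mean signal column, were corrected by normexp (offset 50) and normalized by loess in limma 3.58.1 (R 4.3.3, data.table, version 1.17.8). Spots of a probe were averaged, the brightest kept probe stood for a gene, and the 3 log2 ratios were fitted with an intercept and moderated variances, with Benjamini-Hochberg adjustment over 13705 genes. Levels are log2 intensities after loess and Aquantile normalization. Probes were named by their RefSeq accession. The calculation was tested on simulated data.

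Muscles of 1 replicate number shared an array, which is where the pairing comes from; deviations of same-numbered muscles from their group means correlated at -0.02, -0.29 and 0.34 across genes. The labels call the samples biological replicates. Named genes are every member and probe, and of each list up to 4 genes of smallest p (lists of at most 8 genes may be named in full). The members and lists were chosen with earlier results of these data known. The number of arrays limits the precision.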

Additional observations from a re-analysis of the deposited data

How the results depend on the processing

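The number of arrays limits what can be said of every Asb gene, and weak or near-background signal limits Asb4, Asb12, Asb15 and Asb18. Other settings were a normexp offset of 10, signals without background correction, processed signals, median centring, the dim filter dropped or asked of both channels, a mean over kept probes, 1 replicate left out at a time, trend and robust variances, the methods' t-test, the 6 channel values as separate samples (no replicate block) and, chosen after seeing the data, a fit of every kept probe. No Asb gene was called in any of them. Of 125 values of single genes, 58 equaled the reported ratio, mostly because the setting changes only the test or the filter; of the other 67, 54 kept their direction and 13 did not. Over all genes, 131 were called; 444 with processed signals, 222 with an offset of 10, 421 with median centring, 67 in the methods' t-test (0 after Benjamini-Hochberg), 57 with trend and robust variances, 124 with no replicate block (66 higher and 58 lower, with 1 gene at an adjusted p under 0.05 and no Asb gene called), and 185 to 207 leaving out 1 replicate. The median of the Asb genes lay between -0.16 and 0.26 leaving out 1 replicate and was -0.10 with median centring; the cause was not tested. Without replicate 2, 3 genes passed an adjusted p under 0.05 in limma.

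The direction turned with processed signals for Asb10 (0.017) and Asb18 (0.047), with median centring for Asb2 (-0.10), Asb11 (-0.044) and Asb14 (-0.15), and with the mean over kept probes for Asb18 (0.0030). Leaving out 1 replicate gave -0.33 to 0.44 for Asb2, -0.27 to 0.60 for Asb4, 0.089 to 0.47 for Asb5, 0.11 to 0.46 for Asb12, -0.23 to 0.16 for Asb10, -0.16 to 0.33 for Asb11, -0.15 to 0.26 for Asb14, -0.24 to 0.0092 for Asb15 and -0.13 to 0.053 for Asb18. The filter on both channels left 8 Asb genes, without Asb15. With no filter Asb16 entered as well, uncalled.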
